A study of Drosophila melanogaster with 8 samples.

Results

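The genes described here encode peptide hormones and neuropeptides of the fly, with a helper protein of the enzymes that cut their precursors. They were chosen by name: 7B2, amon, Gbp2, Pdf, Akh, Dsk and every symbol that begins with Nplp, 10 genes in the RefSeq gene table. Of these, 6 had features on the array, namely 7B2, Gbp2, Pdf, Nplp1, Nplp2 and Nplp3, each as 2 neighbouring spots, so that 12 of 27648 features and 6 of 6793 named genes were described. The annotation used here lists no feature for amon, Akh, Dsk and Nplp4, and these were not analysed. Only 7B2 belongs to the processing machinery, and the other 5 genes encode secreted peptides or their precursors.

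Peptide hormones are made as larger precursors that enter the secretory pathway, are cut at pairs of basic residues by proprotein convertases, trimmed, and often amidated at the end of the chain. The finished peptides are stored in dense core vesicles and released to act on receptors of neurons or distant tissues. In the fly head they come from brain neurons, neurosecretory cells and fat body, and they set sleep and activity rhythms, feeding and metabolism.

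The study asked how head transcripts differ after gabapentin, an anticonvulsant, is given to flies withdrawn from pentylenetetrazole, a convulsant blocker of GABA receptors. Unmated Oregon-R wild type males, 3 to 4 days old at the start, received food with 8 mg/ml pentylenetetrazole for 7 days and then 16 mg/ml gabapentin for 3 days. Heads were taken either at that point, the day 10 group, or after 4 more days on normal food, the day 14 group. Controls were males of the same strain moved to fresh normal food on the same days. No group received pentylenetetrazole alone or gabapentin alone, so the treated flies of both groups carry the combined treatment. The labels of 3 of the 4 day 14 arrays write ETH, which they do not explain, where the second drug stands in the feeding order, and these arrays were placed by their titles.

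Each group had 4 spotted cDNA arrays, and each array held RNA of pooled treated heads and pooled control heads in 2 dyes. The labels describe separate head pools from parallel sets of treated and control vials, so the spread between arrays includes that between pools. The values are log2 ratios of the 2 dyes, with no level for either sample, so the head origin could not be checked against marker levels and genes cannot be ranked by abundance. Treated flies were in Cy5 on replicates 1 and 2 of each day and in Cy3 on replicates 3 and 4. The labels name neither the dye in the numerator nor whether swapped arrays were turned before deposit. Ratios were therefore read as Cy5 over Cy3 with replicates 3 and 4 turned. A value below 0 then stands for less signal in treated flies. The means of the 5 tested genes are also given with the deposited signs kept. Deposited values of arrays in opposite dyes correlated at 0.03 to 0.39 (Pearson's r) at day 10 and at -0.28 to 0.21 at day 14. Same-dye pairs correlated at 0.39 and 0.16 at day 10 and at -0.03 and 0.42 at day 14. Turning 1 array of a pair reverses the sign of r, so opposite-dye arrays of day 10 run against each other once turned. These values do not settle the reading. Arrays had between 6628 and 19719 values, with deposited medians between -0.83 and 0.29, and at day 10 the median gene or feature itself stood at -0.25. Values relative to each array's own median are given beside the plain ratios for that reason. In pooled heads, fewer cells of a type and less RNA per cell cannot be told apart.

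No member of the group passed the test on either day or for the difference between the days. Of 5 tested members, 0 passed at day 10, where 0% of 11312 genes and features passed, 0 at day 14, where 0% of 6142 passed, and 0 for the day difference, where 0% of 5187 passed. The test was limma's moderated test with Benjamini-Hochberg adjustment at 0.05. At an unadjusted p under 0.05 the members held 0 of 5 at day 10, 1 of 5 at day 14 and 0 of 5 for the difference, against 5.58%, 0.57% and 1.47% of everything tested. The 1 gene was Gbp2.

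**Figure D1:**
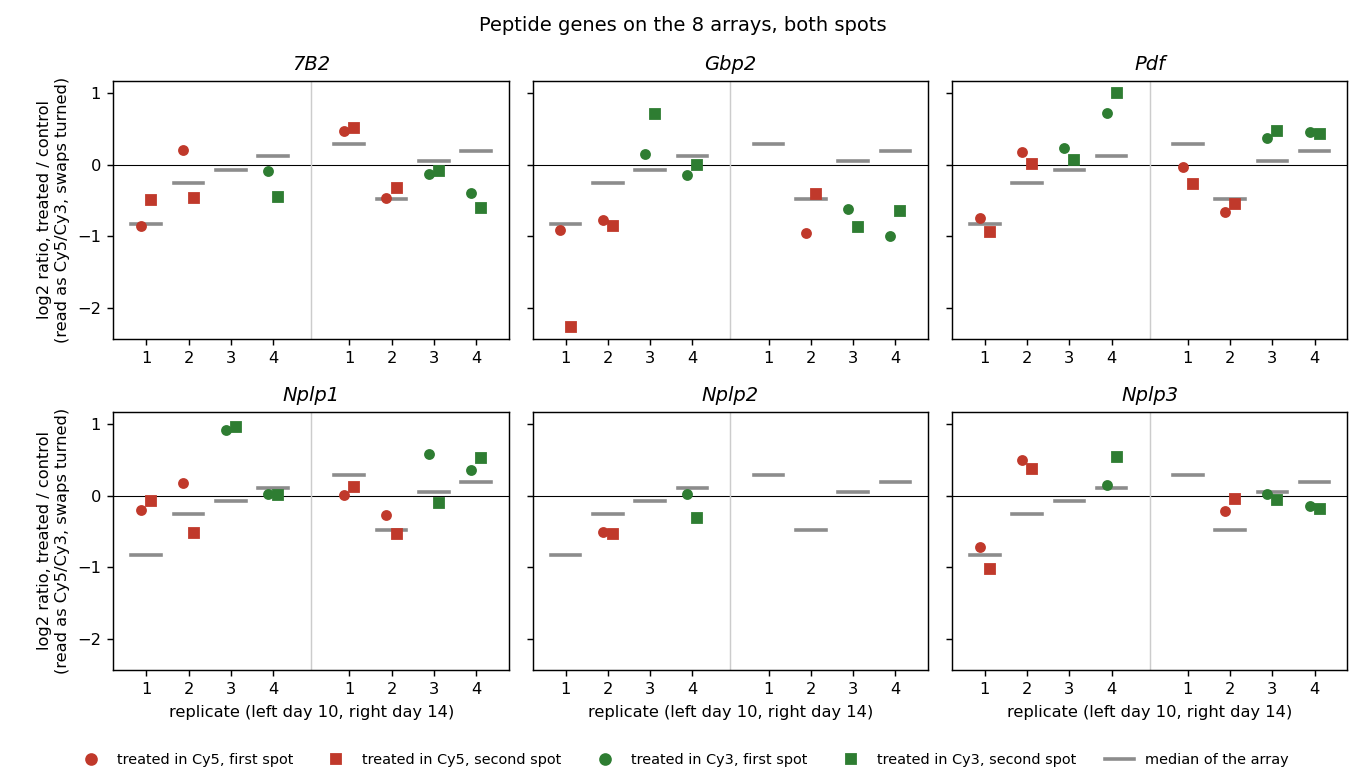
Log2 ratio of treated over control (vertical axis, read as Cy5 over Cy3 with swapped arrays turned) for both spots of each gene on every array with a value, with replicates 1 to 4 of day 10 on the left and of day 14 on the right of each panel. Red marks arrays with treated RNA in Cy5, green those with treated RNA in Cy3, and grey bars show each array's median. Gbp2 lies below 0 on all 3 measured day 14 arrays, and its spots on day 10 replicate 1 stand far apart.

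Gbp2 (Dmel_CG11395) encodes a growth-blocking peptide, a small cytokine released by the fat body that acts on insulin-producing neurons, and in the RefSeq table it lies next to Gbp1, its close relative. With swapped arrays turned it had the lowest mean of the group on both days, and with deposited signs kept it was again the lowest tested member at day 10 and the highest at day 14. At day 14 its log2 ratio was -0.68 on replicate 2, -0.75 on replicate 3 and -0.83 on replicate 4, with no value on replicate 1. As plain ratios, the 3 measured arrays lay close together and all below 0 after turning, with 1 array standing for the Cy5 orientation. On replicate 2, the 1 array with treated flies in Cy5, its spots stood at -0.96 and -0.41, a gap of 0.56 that exceeds the 90th percentile of 0.46 for paired spots on that array. Their mean was -0.75 ± 0.07 (SD, n = 3), and the fitted mean had a standard error of 0.35 and a 95% interval from -1.49 to -0.01 (limma, unadjusted p = 0.0461, adjusted p = 1). That error takes in the spread of both days, since 1 variance is fitted per gene. Before any turning, the deposited value was -0.68 with treated flies in Cy5 and 0.75 and 0.83 with treated flies in Cy3, so the sign changed with the dye. The mean of the deposited values was therefore 0.30 (limma adjusted p = 0.999).

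Relative to each array's median, Gbp2 at day 14 stood at -0.20, -0.80 and -1.02 on replicates 2, 3 and 4. These values place it at the 19.7th, 1.31st and 0.854th percentile of all genes and features on those arrays. As deposited, the values on replicates 3 and 4 were 0.80 and 1.02 above the array median, at the 98.7th and 99.1st percentile. The 2 arrays with treated flies in Cy3 thus held it at an extreme of their ratios under either reading, the low end when turned and the high end as deposited, and replicate 2 did not. The mean of these centred values was -0.68 (limma unadjusted p = 0.0316, adjusted p = 0.999). It was -0.40 (limma unadjusted p = 0.135) when the drift along the table was also removed by centring by position. Replicate 2 then stood at 0.06, above 0, and replicates 3 and 4 at -0.66 and -0.60. Within the 2 Cy3 arrays alone the mean of the plain ratios was -0.79 (limma adjusted p = 0.618). Only 1 of the day 14 arrays with treated flies in Cy5 had a value, so no such mean exists for Cy5.

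At day 10 Gbp2 stood at -1.59, -0.82, 0.43 and -0.08 on replicates 1 to 4, a spread from far below 0 to above it. Replicate 1 was the lowest and its spots disagreed, at -0.91 and -2.27, a gap of 1.36 where the median gap between paired spots of named genes on that array was 0.25. The mean was -0.52 ± 0.88 (SD, n = 4), with a fitted standard error of 0.30 and a 95% interval from -1.16 to 0.12 (limma adjusted p = 0.760). Without replicate 1 it was -0.16 and without replicate 3 it was -0.83. The arrays with treated flies in Cy5 had a mean of -1.21 and those in Cy3 of 0.17, so the means of the orientations had opposite signs. The Cy3 arrays themselves lay on both sides of 0, at 0.43 and -0.08, with replicate 4 below 0 like the Cy5 arrays. With deposited signs kept, the mean was -0.69 (limma adjusted p = 0.198). Relative to the array medians Gbp2 stood at -0.76, -0.56, 0.51 and -0.19 on replicates 1 to 4, with a mean of -0.25.

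The difference of Gbp2 between the days, day 14 minus day 10, was -0.24 ± 0.45 (SE), with a 95% interval from -1.17 to 0.70 (limma adjusted p = 0.944). It turned to 0.077 without day 10 replicate 3. With deposited signs kept it was 0.99 (limma unadjusted p = 0.0278, adjusted p = 0.994). The reading of the swapped arrays thus set the direction of the difference. Fat body markers, the tissue in which Gbp2 is known to be made, had 12 of 13 genes on the array, of which 9 were measured on each of day 14 replicates 2, 3 and 4. Their median relative to the array was 0.12, -0.28 and -0.08 on these arrays, with 1, 8 and 6 of the 9 genes below it, and their part in the result was not tested. Photoreceptor markers, with 6 of 13 genes on the array, had medians of 0.01, -0.59 and -0.66 on the same 3 arrays. Muscle markers had medians of -0.0035, -0.13 and -0.24, and both lists fell in the same order as Gbp2. Glia markers fell in the reverse order, at -0.30, -0.20 and -0.18, from 2, 5 and 3 measured genes. The 1 neuron marker on the array, nSyb, stood at -0.67 and -0.46 on replicates 3 and 4. Haemocyte markers had medians of -0.27 and 0.19 there, from 1 and 2 measured genes. Both lists were higher on replicate 4 than on replicate 3, unlike Gbp2, and had no value on replicate 2. The part of all these lists was not tested either.

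7B2 (Dmel_CG1168) encodes the chaperone that the convertase amon needs to become active, and it is the only processing gene among the members. At day 10 its log2 ratio was -0.68, -0.13 and -0.27 on replicates 1, 2 and 4, with no value on replicate 3. All 3 lay below 0, which also held for 16% of the genes and features tested that day, so nothing particular to 7B2 is read from the count. The mean was -0.36 ± 0.29 (SD, n = 3), with a fitted standard error of 0.30 and a 95% interval from -0.99 to 0.27 (limma adjusted p = 0.760). Relative to the array medians the same arrays stood at 0.15, 0.13 and -0.39, so 7B2 was above the median of 2 arrays and below that of the third. The centred mean was -0.034.

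At day 14, 7B2 stood at 0.49, -0.40, -0.11 and -0.50 on replicates 1 to 4, with replicate 1 opposite to the other 3 arrays. The mean was -0.13 ± 0.45 (SD, n = 4), with a fitted standard error of 0.26 and a 95% interval from -0.68 to 0.41 (limma adjusted p = 1). Relative to the array medians 7B2 stood at 0.21, 0.08, -0.17 and -0.70, which puts both arrays with treated flies in Cy5 above 0 and both with treated flies in Cy3 below it. Its percentile ran from 2.76 on replicate 4 to 71.1 on replicate 1. With deposited signs kept, the centred values were 0.21, 0.08, 0.17 and 0.70 on replicates 1 to 4. At day 10 they were 0.15, 0.13 and 0.39 on replicates 1, 2 and 4. The share of everything tested with such values was not computed, so nothing particular to 7B2 is read from their shared sign. The uncentred means in that reading were -0.18 at day 10 and 0.18 at day 14. The day difference was 0.23 ± 0.38 (SE; limma adjusted p = 0.944), and it was -0.11 with arrays centred.

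Pdf (Dmel_CG6496) encodes pigment-dispersing factor, the neuropeptide by which the lateral clock neurons keep the circadian network in step. At day 10 its turned log2 ratio was -0.84, 0.09, 0.15 and 0.87 on replicates 1 to 4, spread on both sides of 0. At day 14 it was -0.16, -0.61, 0.42 and 0.44, below 0 on both arrays with treated flies in Cy5 and above 0 on both in Cy3. The means were 0.07 ± 0.70 (SD, n = 4) and 0.02 ± 0.50 (SD, n = 4), with 95% intervals from -0.54 to 0.68 and from -0.59 to 0.64 (limma adjusted p = 0.922 and 1). The sign of the day 10 mean rested on replicate 4, without which it was -0.20. At day 14 the mean was -0.11 without replicate 3 and -0.11 without replicate 4.

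The deposited values of Pdf, before any turning, lay below 0 on 7 of 8 arrays whichever dye the treated flies carried. Values below 0 on 7 or 8 arrays were found for 19.7% of the 2217 genes and features measured on all 8 arrays. At day 14 the deposited ratio of Pdf was also below the array's own median on all 4 arrays, by 0.44, 0.13, 0.37 and 0.25 on replicates 1 to 4, as was that of 8.34% of the 3622 genes and features measured on all 4. At day 10 it stood at -0.01, 0.35, -0.23 and -0.75 relative to the array medians, with replicate 2 above. With deposited signs kept, the fitted means were -0.44 at day 10 and -0.41 at day 14, with 95% intervals from -0.92 to 0.04 and from -0.89 to 0.08 (limma adjusted p = 0.260 and 0.999). These are the values that would stand for treated over control if the swapped arrays had been turned before deposit. Everything tested had medians of -0.30 at day 10 and -0.13 at day 14 in that reading. Relative to the array medians, the mean of the deposited Pdf values was -0.16 at day 10 and -0.29 at day 14. With the direction unsettled, a dye difference of this transcript and a difference between treated and control flies cannot be told apart. The spots of Pdf agreed well, with a median gap of 0.17 and none above the 90th percentile of paired spots on its array. The day difference was -0.04 ± 0.40 (SE; limma adjusted p = 0.981), and it turned to 0.22 without day 10 replicate 4, to 0.018 without day 14 replicate 1 and to 0.17 without day 14 replicate 2. The gene of its receptor, Pdfr, had a day 10 mean of -0.21 ± 0.30 (SE, n = 4). Its day 14 mean was 0.19 ± 0.34 (SE, n = 3).

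Nplp1 (Dmel_CG3441) encodes a precursor of several neuropeptides, among them IPNamide, which is found in dorsal clock neurons. At day 10 its log2 ratio was -0.14, -0.17, 0.94 and 0.02 on replicates 1 to 4, close to 0 on all arrays but replicate 3. At day 14 it was 0.07, -0.40, 0.24 and 0.45, with replicate 2 alone below 0. The means were 0.16 ± 0.53 (SD, n = 4) and 0.09 ± 0.36 (SD, n = 4), with 95% intervals from -0.39 to 0.72 and from -0.47 to 0.64 (limma adjusted p = 0.812 and 1). Without day 10 replicate 3 the first was -0.10, and without day 14 replicate 4 the second was -0.032. Relative to the array medians Nplp1 stood at 0.69, 0.09, 1.02 and -0.09 at day 10, in the 96.6th percentile on replicate 3, and its centred mean was 0.43 (limma unadjusted p = 0.0523, adjusted p = 0.991). The turned mean was 0.15 when centred by position. Relative to the array medians, the mean of the deposited values was -0.04.

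As with Pdf, the deposited values of Nplp1 lay below 0 on 7 of 8 arrays, against the same 19.7%, and its means in that reading were -0.32 at day 10 and -0.26 at day 14. Relative to the array medians, however, the deposited values lay on both sides of 0 on both days. Its spots differed by more than the 90th percentile of paired spots on 2 of 8 arrays. The day difference was -0.07 ± 0.36 (SE; limma adjusted p = 0.974), and it turned to 0.19 without day 10 replicate 3 and to 0.090 without day 14 replicate 2.

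Nplp3 (Dmel_CG13061) encodes a neuropeptide-like precursor named for the peptide VVIamide. At day 10 its log2 ratio was -0.87, 0.44 and 0.35 on replicates 1, 2 and 4, with replicate 1 alone below 0. At day 14 it was -0.13, -0.02 and -0.16 on replicates 2, 3 and 4, all just below 0. The means were -0.03 ± 0.73 (SD, n = 3) and -0.11 ± 0.07 (SD, n = 3), with 95% intervals from -0.70 to 0.65 and from -0.78 to 0.57 (limma adjusted p = 0.969 and 1). Its low value on day 10 replicate 1 is close to that array's median of -0.83, and relative to the medians it stood at -0.03, 0.70 and 0.23. The day 10 mean accordingly turned to 0.30 with arrays centred, to 0.43 centred by position (limma unadjusted p = 0.0127, adjusted p = 0.751) and to 0.39 without replicate 1. As deposited, the means were -0.26 at day 10 and 0.018 at day 14 (limma adjusted p = 0.561 and 0.999). The day difference was -0.08 ± 0.44 (SE; limma adjusted p = 0.974), and it turned to 0.15 without day 10 replicate 2 and to 0.11 without day 10 replicate 4.

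Nplp2 (Dmel_CG11051) encodes a peptide that also circulates in the blood and is listed under the name of an immune-induced molecule. It had values on 2 arrays only, day 10 replicates 2 and 4, and so was not tested. Its log2 ratio was -0.52 on the first and -0.14 on the second, both below 0 after turning. Relative to the array medians both stood at -0.26. No day 14 array gave a value.

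Counted over the tested members, 1 of 5 lay below 0 on every measured array at day 10, 7B2, and 0 of 5 above it, against 16% and 0.663% of everything tested. At day 14 the members below 0 on every measured array were 2 of 5, Gbp2 and Nplp3, and those above it 0 of 5, against 7.13% and 4.35%. Both of these genes had only 3 measured arrays at day 14.

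**Figure D2:**
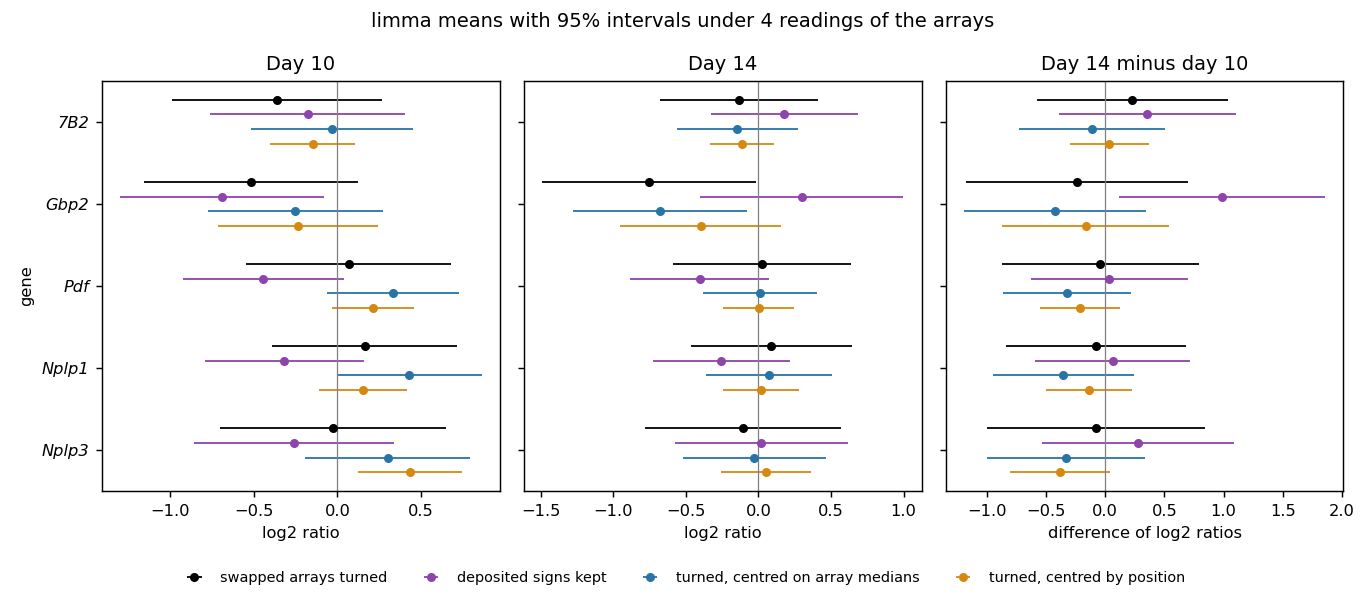
Fitted mean log2 ratio of the 5 tested genes (horizontal axis) at day 10, at day 14 and as the day difference, with 95% intervals from limma, under 4 readings of the same arrays. The interval of Gbp2 at day 14 ends just below 0 with swapped arrays turned, and its mean goes from -0.75 to 0.30 when deposited signs are kept. No value passed after adjustment under any of the 4 readings.

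Other genes of peptide signalling were taken from 4 lists, and none of their measured members passed on either day. The genes that make the remaining peptide hormones had 9 of 45 members on the array and 6 tested on each day, with a median of -0.23 at day 10 and -0.12 at day 14, while everything tested had medians of -0.25 and 0.00. At day 10 the lowest after turning was Lst, which encodes limostatin, a hormone that restrains insulin release, at -0.41 ± 0.29 (SE, n = 4), followed by Mip at -0.28, Capa at -0.25, ITP at -0.21, Ilp2 at -0.17 and AstC at -0.12. All 6 lay below 0, as did the median of everything tested, and with arrays centred on their medians 5 of the 6 lay above 0, from 0.01 for Capa to 0.15 for AstC, with Lst at -0.14. Under the deposited signs, all 6 were again below 0, as was the median of everything tested, -0.30. The order of the 6 was another, from AstC at -0.67 and ITP at -0.46 to Ilp2 at -0.01, with Lst at -0.33. The share of everything tested with a mean below 0 was not computed in either reading, so nothing is read from these counts. Ilp2, an insulin of the brain cells on which Gbp2 acts, stood at -0.14 at day 14, and at 0.11 with deposited signs kept. After turning, all 3 measured arrays lay below 0, between -0.20 and -0.04, as for 7.13% of everything tested that day. Also at day 14, Mip stood at -0.15, Lst at -0.12, AstC at -0.11, ITP at 0.04 and amn, a memory-related peptide gene, at 0.08. As deposited, 5 of these 6 lay below 0 at day 14, from AstC at -0.41 to amn at -0.03, and Ilp2 alone lay above it.

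The processing enzymes other than 7B2 had 5 of 7 members on the array, with 4 tested at day 10 and 1 at day 14. At day 10 Pal1 and Pal2, which encode lyases of the last step of peptide amidation, stood at -0.44 ± 0.27 (SE, n = 4) and -0.41 ± 0.28 (SE, n = 3). Both lay below 0 on every measured array after turning, as did 16% of everything tested that day. Capa, Mip and the receptor genes TrissinR and SIFaR did so too. The convertase gene Fur2 stood at -0.46 ± 0.33 (SE, n = 4) and Phm, whose enzyme acts just before the lyases, at -0.04 ± 0.30 (SE, n = 3). The list median was -0.43 beside -0.25 for everything tested, and with arrays centred it was -0.10 beside 0.03. Pal1, Pal2 and Fur2 then stood at -0.18, -0.02 and -0.20, and Phm at 0.29. As deposited, Pal1 stood at -0.24, Pal2 at -0.26, Fur2 at -0.56 and Phm at 0.11. Pal2 at day 14 was at -0.10 ± 0.24 (SE, n = 4), and at 0.0031 with deposited signs kept.

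Peptide receptor genes had 14 of 41 members on the array and 7 tested on each day, with medians of -0.20 at day 10 and 0.04 at day 14. At day 10 all 7 lay below 0 after turning, as did the median of everything tested, -0.25, so nothing is read from the count. The 7 ran from TrissinR at -0.48, SIFaR at -0.29, Pdfr at -0.21, SPR, Dh31-R and NPFR at -0.20, to the bursicon receptor rk at -0.01. With arrays centred, 6 of these 7 lay above 0 and TrissinR stood at -0.16. Under the deposited signs, 5 of the 7 lay below 0, from SPR at -0.67, Pdfr at -0.56 and NPFR at -0.48 to TrissinR at -0.36 and SIFaR at -0.25, while Dh31-R at 0.18 and rk at 0.21 lay above it. At day 14, tor and Dh31-R stood at 0.19, Pdfr at 0.19, Lkr at 0.04, SPR at 0.03, Dh44-R1 at -0.03 and AkhR, the receptor of adipokinetic hormone, at -0.08. As deposited, 4 of these 7 lay below 0, from AkhR at -0.48 to tor at -0.17, and Dh31-R was the highest at 0.30. The value of Dh31-R came from arrays that opposed each other, with 1.66 on replicate 1 and -0.67 on replicate 2. Of the dense core vesicle genes, 2 of 9 were on the array and Rab2, a small GTPase of vesicle maturation, was tested, with a day 10 mean of -0.35 ± 0.28 (SE, n = 4) and a day 14 mean of -0.11 ± 0.28 (SE, n = 4), or -0.45 and -0.30 with deposited signs kept.

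**Figure D3:**
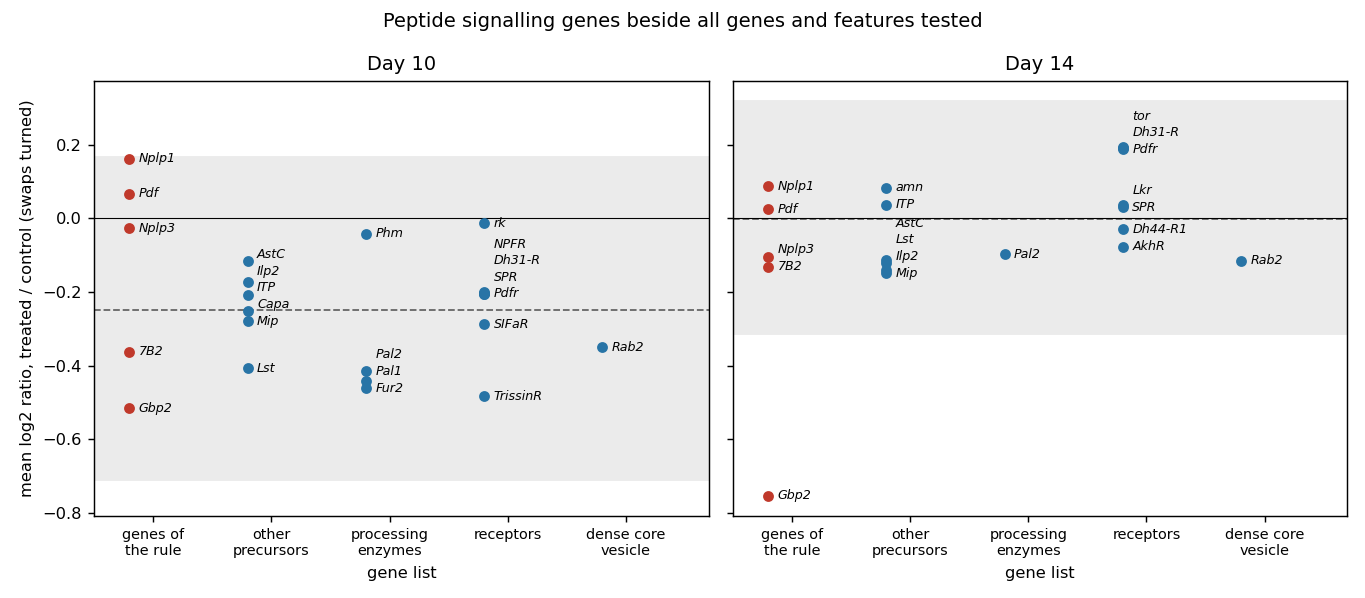
Mean log2 ratio of treated over control (vertical axis, swapped arrays turned) at day 10 and day 14 for the 5 tested genes of the rule in red and the tested members of 4 other peptide signalling lists in blue, with gene names stacked beside close points. The grey band spans the 5th to 95th percentile of all genes and features tested and the dashed line marks their median, -0.25 at day 10. Gbp2 at day 14 is the point outside the band.

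The fitted means of everything tested give a scale for these values. At day 14 their 5th and 95th percentiles were -0.31 and 0.32, and Gbp2 lay outside that range while the other 4 tested members lay inside it. At day 10 they were -0.71 and 0.17, and all 5 tested members lay inside. Under the deposited signs the range was -0.48 to 0.21 at day 14, with Gbp2 at 0.30 above it and the other 4 tested members inside, Pdf at -0.41 among them. At day 10 it was -0.87 to 0.36, with all 5 inside. Gbp2 at day 14 is a mean of 3 arrays.

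Pdf and Nplp1 had values on all 8 arrays, which allowed a search for genes with the most similar pattern among 897 other named genes with complete values. The measure was Pearson's r over the 8 turned, median-centred ratios, given as a description, since all values of an array share its RNA, dyes and drift. The closest to Pdf were Hcf, CG7322 and AstC, another neuropeptide gene, with r of 0.91, 0.91 and 0.90. After centring by position these r were 0.17, 0.09 and 0.23, and the genes ranked 361st, 416th and 297th, so the likeness was not kept. The closest to Nplp1 were Rab35, CG1324 and orb2, with r of 0.97, 0.95 and 0.94, and 0.84, 0.79 and 0.63 after centring by position. The nearest feature of Rab35 lies 27 places from one of Nplp1 in the table, while Hcf, CG7322, AstC, CG1324 and orb2 lie 1151 or more places from the gene they resemble.

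**Figure D4:**
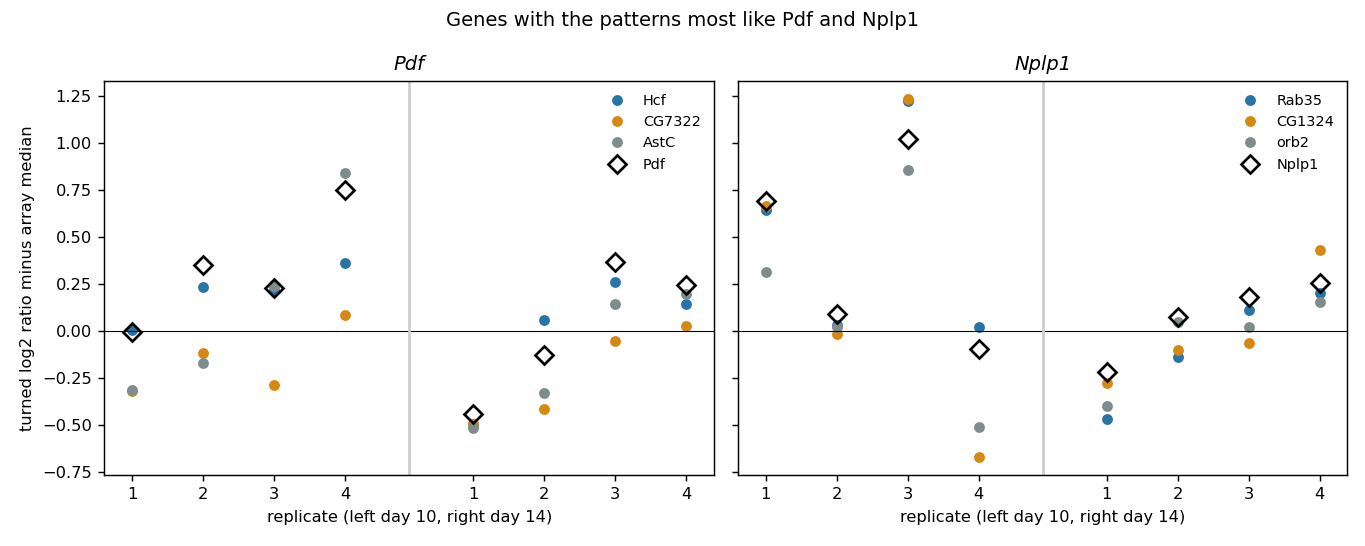
Turned log2 ratio minus the array median (vertical axis) on each array, replicates 1 to 4 of day 10 on the left and of day 14 on the right, for Pdf and Nplp1 (open diamonds) and the 3 named genes with the most similar pattern to each (filled circles). Nplp1 and its neighbours are highest on day 10 replicate 3, where Nplp1 stands at 1.02.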

How the data were processed

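Per the labels, amplified RNA of pooled heads carried either Cy3 or Cy5, and 1 treated and 1 control sample shared each of the 4 spotted cDNA arrays of a day. Per the series' design text, spots were quantified with Gene Pix Pro 6.0 and ratios normalized in Acuity 4.0, and weak, saturated or irregular spots were removed, which leaves blanks. The authors deposited log2 ratios between both channels, with base 2 inferred from extremes equal to log2 of 0.001 and 0.002. The dye of the numerator and any turning of swapped arrays before deposit are not given in the sources used here. Signal over background is unknown, since scanner output was not analysed here.

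In the platform annotation 15116 features carried a single symbol, 102 carried several and 12430 none. Of the first, 14894 were matched to RefSeq gene identifiers. Features of a gene were averaged per array, and the rest were tested by number. Arrays with treated RNA in Cy3 were turned. A model with 1 mean per day was fitted to the 8 arrays together in limma 3.58.1 (R 4.3.3), keeping genes and features measured on 3 or 4 arrays of the day tested. Benjamini-Hochberg adjustment ran over all of them, with a threshold of 0.05. The fit was tested on simulated data. Standard errors come from the fit, and 4 arrays per day limit the precision. Centring by position subtracted medians of runs of 576 and then 24 features.

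The rule named every member with a value, all tested members of a list with 8 or fewer, and the 3 genes most like each member measured on all 8 arrays. Alternatives covered the sign change, centring, filters, averaging, variances, replicate block, dye orientation and each array left out. The members, lists and alternatives were chosen with earlier results of these data known.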

Additional observations from a re-analysis of the deposited data

How the results depend on the processing

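No member value passed limma's test under any alternative, out of 265 values, the smallest adjusted p being 0.0818 for Gbp2 at day 10 on the Cy5 arrays, at -1.21. That value is not centred, and relative to the array medians Gbp2 stood at -0.76 and -0.56 on day 10 replicates 1 and 2. With at least 2 arrays required, a value on all 4, features alone, robust variances or each day alone, no sign changed among the values that could be fitted. With deposited signs kept, 11 of 15 member values turned: at day 14 7B2 to 0.18, Gbp2 to 0.30, Pdf to -0.41, Nplp1 to -0.26 and Nplp3 to 0.018, at day 10 Pdf to -0.44 and Nplp1 to -0.32, and the day differences of Gbp2 to 0.99, Pdf to 0.037, Nplp1 to 0.064 and Nplp3 to 0.28. Centring on medians turned the 7B2 difference to -0.11 and Nplp3 at day 10 to 0.30, and centring by position turned Nplp3 to 0.43 at day 10 and 0.051 at day 14. On the Cy5 arrays alone 7B2 at day 14 was 0.047, Pdf -0.38 on both days (-0.376 and -0.381), and Nplp1 -0.16 and -0.17, and on the Cy3 arrays alone Gbp2 at day 10 was 0.17. The cause of these changes was not tested, beyond the sign change that keeping deposited signs applies by construction.

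Counts of genes and features past the threshold, 0 in each comparison, became 67 at day 10 with deposited signs kept, 447 at day 10 on the Cy5 arrays alone, and 3 at day 10 and 2 at day 14 with each day fitted alone, with no member among them. The counts of 67 and 447 come from ratios tested against 0 without centring. Under deposited signs everything tested at day 10 had a median of -0.30. Day 10 replicates 1 and 2, the Cy5 arrays, had medians of -0.83 and -0.26. The part of these shifts in the 67 and 447 was not tested. Leaving out each array in turn gave 0 to 3 at day 10 (3 without day 14 replicate 3), 0 at day 14, and 0 to 1 for the difference (1 without day 10 replicate 4 or day 14 replicate 3). It moved 7B2 from -0.48 to -0.20 at day 10, from -0.34 to -0.01 at day 14 and from 0.02 to 0.35 for the difference, and Gbp2 from -0.83 to -0.16, from -0.79 to -0.71 and from -0.60 to 0.077. Pdf ran from -0.20 to 0.37, from -0.11 to 0.23 and from -0.34 to 0.22, Nplp1 from -0.10 to 0.27, from -0.032 to 0.25 and from -0.19 to 0.19, and Nplp3 from -0.26 to 0.39, from -0.15 to -0.08 and from -0.50 to 0.15.

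Same-numbered arrays of the days are linked by their titles only. Their deviations from the day means correlated at 0.03, 0.37, 0.22 and 0.19 (Pearson's r) for replicates 1 to 4. Pairs with different numbers ran from -0.38 to 0.29. Same-numbered arrays also share the dye orientation, so these values cannot tell whether the numbers pair the arrays. With the replicate number as a block, 0 genes and features passed limma's test in each comparison, with 558, 126 and 127 at an unadjusted p under 0.05 at day 10, at day 14 and for the difference, against 631, 35 and 76 without it. Gbp2 then stood at -1.11 at day 14 (limma unadjusted p = 0.00141, adjusted p = 1), its day difference at -0.60, Nplp3 at -0.43 at day 14 with a difference of -0.54, and Nplp3 at day 10 turned to 0.11. Gbp2 and Nplp3 had no value on day 14 replicate 1, and these day 14 means lay below every measured array of that day. The block fit takes the missing array from day 10 replicate 1, where Gbp2 stood at -1.59 and Nplp3 at -0.87. The block values are therefore not read as a stronger difference at day 14. Ratios with no intensities limit what can be said of genes with few values, such as Nplp2.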
